A study of Mus musculus with 7 samples.

Results

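Natural killer (NK) cell receptor genes were examined in bulk RNA-seq of mouse pancreatic ductal adenocarcinoma (PDA) tumors in which the keratin gene *Krt19* of the cancer cells was edited or left intact. The set held 10 genes (*Ncr1*, *Klrb1c*, *Klre1*, *Klra4*, *Klra7*, *Klra8*, *Klrc1*, *Klrd1*, *Klrk1* and *Klrg1*), taken by symbol from the 38026 genes of the table, and each symbol matched 1 row. Line 1242 comes from a tumor of a KPC mouse, a pancreatic cancer model in which Cre is driven by the pancreatic *Pdx1* promoter. The cells were given Cas9 with a scrambled guide RNA (sgScramble, 4 tumors, replicates 1 to 4) or a guide RNA against *Krt19* (sgKrt19, 3 tumors, replicates 5, 6 and 8), and both sets of cells therefore carry the lentiviral Cas9 vector and passed puromycin selection. Whether the sequenced tumors grew from the polyclonal lines or from a clone is not given in the sources used here, so the guide and the cell line it was made in cannot be told apart. All tumors grew under the skin of C57BL/6 mice that received no treatment, and were taken 2 weeks after inoculation. By the methods, C57BL/6 mice were bought at an age of 6 weeks and kept for 2 weeks before use. The comparison asks how far genes of NK receptors differ between tumors formed by *Krt19*-intact and by *Krt19*-edited cancer cells.

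NK cells are innate lymphocytes whose activating and inhibitory receptors, in balance, read ligands on target cells. In mice, NKp46 (*Ncr1*) and NK1.1 (*Klrb1c*) are the usual markers of NK cells in the C57BL/6 strain. Many Ly49 receptors (*Klra* genes) and the CD94 dimers (*Klrd1* with *Klrc1* or *Klrc2*) recognize MHC class I molecules. NKG2D (*Klrk1*) recognizes stress-induced ligands. Activated CD8 T cells also carry NKG2D, CD94 dimers and KLRG1, so *Klrk1*, *Klrd1*, *Klrc1* and *Klrg1* are shared between both lymphocyte types. Because whole tumors were sequenced, more cells of a type and more RNA per cell cannot be told apart.

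In short, 7 of the 10 genes were higher in sgKrt19 tumors and none was lower. Genes of the CD94, NKG2D and KLRE1 receptors rose by 2.82- to 5.19-fold, as ratios of group means, and were called under every setting that was run, whereas the NK receptor genes most used as markers, *Ncr1* and *Klrb1c*, were not called and their groups overlapped. The Ly49 genes *Klra4*, *Klra7* and *Klra8* passed the threshold, and each lost that call when single libraries were left out. The median log2 fold change of the 10 genes was 1.48, with a range of 0.66 to 2.38, beside 0.01 for all 21322 genes tested. Of all genes tested, 34.0% were called and 17.9% were called higher. With scaling by library size only, 4 of the 10 genes were called, and 27.5% of the calls over all genes were higher in place of 52.8%. In 6 of the 10 genes every sgKrt19 library lay above every sgScramble library, which was also so for 21.7% of all genes tested. Each value is a normalized read count, the reads of a gene over the size factor of its library. Errors after ± are SDs over tumors, and a call is an adjusted p under 0.05 in limma over all genes tested.

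The libraries held 40781199 to 44972100 reads, and 3 reads corresponded to a normalized read count of 2.74 to 3.47. This floor covers counting error only. *Krt19* ranged from 17841 to 27618 in sgScramble and from 1606 to 2470.0 in sgKrt19 tumors (log2 fold change −3.52, adjusted p = 1.74e-05, limma), so the targeted gene went with the labels in all 7 libraries. Genes of skeletal muscle moved with the groups. The summed count of 6 muscle genes was 15532 to 21923 in sgKrt19 tumors, 1734 in sgScramble 3 and 43.5 to 68.6 in the other sgScramble tumors. All 6 were called higher, and the part of this difference in the receptor results was not tested. The labels give no batch. *Ncr1*, *Klrb1c*, *Eomes* and *Tbx21*, the markers fixed for NK cells, were above 0 in all 7 libraries, and so were *Cd3e* and the other 12 markers of alpha beta T cells.

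The genes lie in few places in the genome (GRCm38, GENCODE M21 annotation), and all 10 are protein coding. *Ncr1* is on the plus strand at chr7:4337724-4345164. The other 9 are on chromosome 6. *Klrg1* lies at chr6:122270596-122282882 and *Klrb1c* at chr6:128778485-128789215, both on the minus strand. Then follow *Klre1* at chr6:129577905-129585827 and *Klrd1* at chr6:129591782-129598775 on the plus strand, and *Klrk1* at chr6:129610323-129623864 and *Klrc1* at chr6:129666015-129678973 on the minus strand. The Ly49 genes come last on the minus strand, with *Klra4* at chr6:130043731-130067271, *Klra8* at chr6:130115226-130129898 and *Klra7* at chr6:130218605-130233322.

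The DNA around the start sites was searched for motifs of factor families known in NK cells, and is shown for the marker gene *Ncr1* and for *Klrc1* and *Klrk1*, which were called under every setting. Windows of 300 bases (250 before and 50 from the start site on, RefSeq, GRCm38.p6) were held for 8 of the 10 genes, all but *Klrd1* and *Klrg1*. The letters TGTGGT, the core of the sites that RUNX factors bind, occurred on either strand in 5 of the 8, namely *Ncr1*, *Klrb1c*, *Klre1*, *Klrc1* and *Klrk1*. Of 27025 genes with a window, 18.9% held these letters. The T-box half-site GGTGTG occurred in 1 of the 8 (*Klra4*) and in 21.4% of all genes, and the STAT site TTCNNNGAA in 1 of the 8 (*Klra7*) and in 9.55% of all genes. In no window of the 8 genes did a RUNX match overlap a T-box or STAT match. The motifs were chosen after the values of the genes were known, and a match is a description of letters. The 250 bases before the start site of *Ncr1* (chr7:4337465-4337714, plus strand) hold 2 matches, and those of *Klrc1* (chr6:129678974-129679223, minus strand) and *Klrk1* (chr6:129623865-129624114, minus strand) hold 1 each. They are shown 5′ to 3′ with the RUNX core in capitals on whichever strand it lies.
Ncr1: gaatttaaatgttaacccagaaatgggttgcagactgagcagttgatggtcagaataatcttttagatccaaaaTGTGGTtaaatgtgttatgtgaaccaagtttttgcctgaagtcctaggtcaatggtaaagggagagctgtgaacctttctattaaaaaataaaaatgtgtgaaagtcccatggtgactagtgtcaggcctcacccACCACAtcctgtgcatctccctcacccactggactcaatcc
Klrc1: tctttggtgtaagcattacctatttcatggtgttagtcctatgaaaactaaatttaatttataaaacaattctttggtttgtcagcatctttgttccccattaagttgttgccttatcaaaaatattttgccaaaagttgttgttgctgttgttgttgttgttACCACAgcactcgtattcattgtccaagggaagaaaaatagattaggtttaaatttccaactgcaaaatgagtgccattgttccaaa
Klrk1: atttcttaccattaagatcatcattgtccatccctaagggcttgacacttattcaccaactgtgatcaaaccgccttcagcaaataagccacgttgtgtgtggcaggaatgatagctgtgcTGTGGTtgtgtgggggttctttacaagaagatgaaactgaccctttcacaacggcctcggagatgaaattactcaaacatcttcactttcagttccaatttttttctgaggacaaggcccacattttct

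The Ly49 promoters are shown because *Klra4* and *Klra8* are close relatives whose RNA levels were far apart. Over the 300-base windows, 259 of 301 aligned columns were identical between *Klra4* and *Klra8* (86.1%). *Klra7* had a window that matched *Klra4* at 73.7% and *Klra8* at 74.3%. The 250 bases before the start site of *Klra4* (chr6:130067272-130067521) and *Klra8* (chr6:130129899-130130148), both on the minus strand, are given with the bases that differ between them in capitals.
Klra4: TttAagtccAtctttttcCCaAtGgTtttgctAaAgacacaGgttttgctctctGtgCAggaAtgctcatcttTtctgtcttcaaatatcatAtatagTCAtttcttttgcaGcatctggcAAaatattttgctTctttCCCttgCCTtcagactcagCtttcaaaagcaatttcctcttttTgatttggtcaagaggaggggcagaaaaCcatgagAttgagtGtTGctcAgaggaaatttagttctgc
Klra8: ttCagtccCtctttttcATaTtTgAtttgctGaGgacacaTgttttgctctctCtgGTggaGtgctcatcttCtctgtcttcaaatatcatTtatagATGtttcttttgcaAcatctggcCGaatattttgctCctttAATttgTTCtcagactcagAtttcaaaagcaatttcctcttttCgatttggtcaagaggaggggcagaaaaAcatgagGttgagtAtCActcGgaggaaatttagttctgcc

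Close copies limit how well reads can be assigned to some of these genes. Of all stretches of 76 bases, the read length of the study, in the transcripts of *Klrc1*, 24.5% also occur in transcripts of another gene, nearly all of them in *Klrc2* (499 of 504). The share was 19.3% for *Klra8*, where the pseudogene *Klra14-ps* held 175 of 213 such stretches. For *Klrb1c* it was 13.1%, and 14.0% of its exon bases overlap exons of *Gm44511* on the same strand. It was 5.56% for *Klra7*, all with the pseudogene *Klra13-ps*, and 0.256% for *Klra4*, while *Ncr1*, *Klre1*, *Klrd1*, *Klrk1* and *Klrg1* share none. How reads with several matches were counted is not given in the sources used here, so the values of *Klrc1*, *Klra8*, *Klrb1c* and *Klra7* are uncertain to that extent.

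**Figure D1:**
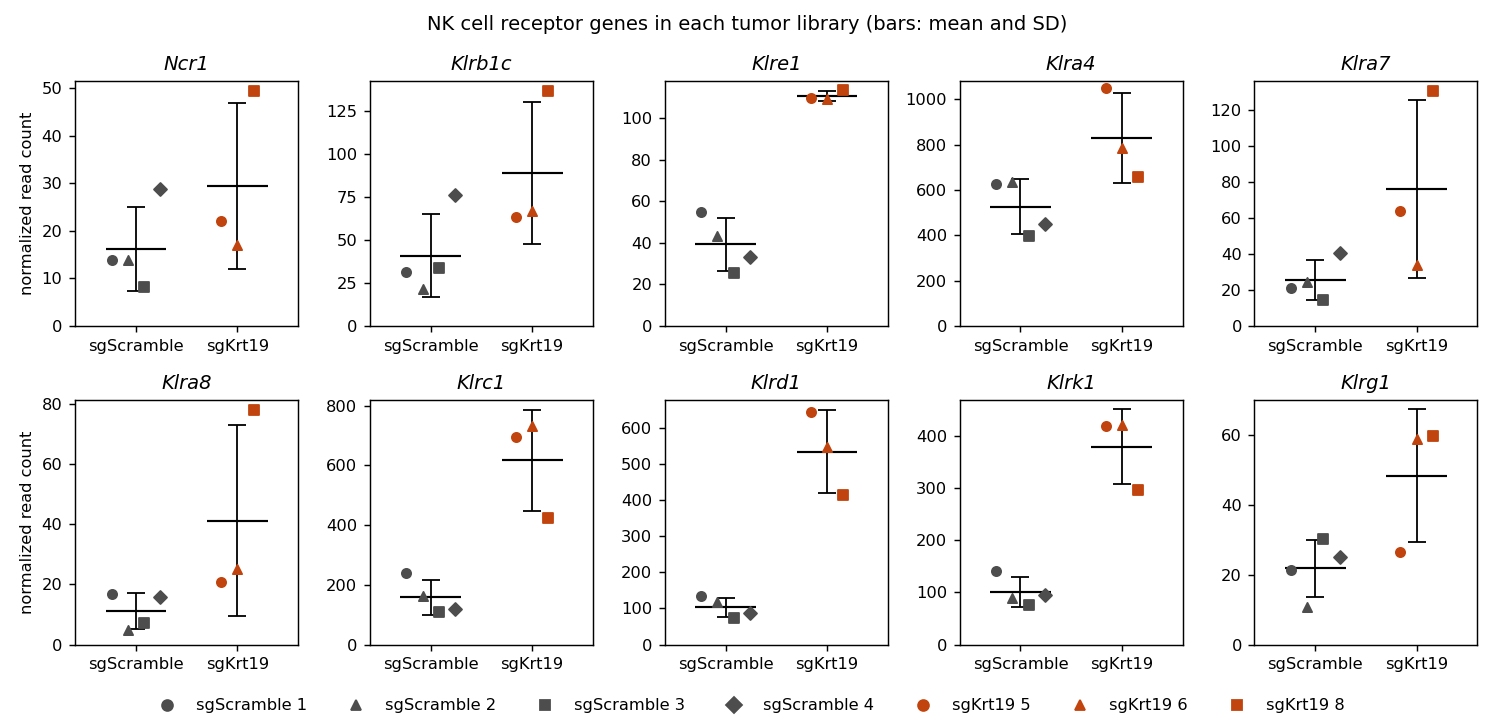
Normalized read count (y axis, linear, starting at 0) of each NK receptor gene in the 4 sgScramble and 3 sgKrt19 tumors (x axis), 1 panel per gene, with 1 marker per library and bars for the mean and SD. *Klre1*, *Klrc1*, *Klrd1* and *Klrk1* have sgKrt19 libraries well above all sgScramble libraries, whereas in *Ncr1*, *Klrb1c*, *Klra7* and *Klrg1* the groups overlap and in *Ncr1*, *Klrb1c*, *Klra7* and *Klra8* the library sgKrt19 8 lies far above the other sgKrt19 libraries.

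The CD94 genes had the largest differences. *Klrd1*, which encodes CD94, the chain shared by all CD94 dimers, had normalized read counts of 134, 117, 74.0 and 87.2 in sgScramble 1 to 4 and of 643, 546 and 413 in sgKrt19 5, 6 and 8. Even the lowest sgKrt19 tumor lay far above the highest sgScramble tumor. The means were 103 ± 27.2 (SD, n = 4) and 534 ± 116 (SD, n = 3), and *Klrd1* rose by 2.38 on the log2 scale (SE 0.234, limma adjusted p = 0.000109). This was the largest of the 10 genes.

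*Klrc1* encodes NKG2A, which pairs with CD94 to form an inhibitory receptor for the class I-like molecule Qa-1. Its normalized read counts were 238, 164, 108 and 121 in sgScramble tumors and 696, 732 and 423 in sgKrt19 tumors. The groups did not overlap, and sgKrt19 8 was the lowest of its group. *Klrc1* rose from a mean of 158 ± 58.7 (SD, n = 4) to 617 ± 169 (SD, n = 3), by 1.99 on the log2 scale (SE 0.285, limma adjusted p = 0.000746). The activating partner gene *Klrc2* (NKG2C), which shares sequence with *Klrc1*, rose as well, from 70.4 ± 20.6 to 301 ± 66.4 (log2 fold change 2.10, adjusted p = 0.000304, limma). Within a library, *Klrc1* over *Klrd1* was 1.38 to 1.78 in sgScramble and 1.03 to 1.34 in sgKrt19 tumors. Every sgKrt19 tumor thus had less *Klrc1* relative to *Klrd1*, but the ranges nearly touch and the ratio was not tested.

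*Klre1*, the chain that pairs with KLRI1 or KLRI2 in another lectin-like receptor of NK cells, was at 54.8, 43.5, 25.6 and 33.4 in sgScramble tumors. In sgKrt19 tumors it was at 109.8, 109 and 113, the narrowest spread of any of the 10 genes in this group. *Klre1* rose from 39.3 ± 12.7 (SD, n = 4) to 111 ± 2.34 (SD, n = 3), by 1.53 on the log2 scale (SE 0.266, limma adjusted p = 0.00216). Its partner gene *Klri2* also rose (log2 fold change 1.67, adjusted p = 0.00116, limma), and *Klri1* did not pass the filter on low values.

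*Klrk1* encodes NKG2D, an activating receptor of NK cells and CD8 T cells that signals through DAP10. Its normalized read counts were 141, 88.9, 75.8 and 94.6 in sgScramble tumors and 419.6, 421 and 296 in sgKrt19 tumors. No sgKrt19 tumor came near the sgScramble range. *Klrk1* rose from 100.1 ± 28.5 (SD, n = 4) to 379 ± 71.7 (SD, n = 3), by 1.93 on the log2 scale (SE 0.231, limma adjusted p = 0.000292). Relative to *Cd8a* it was lower in every sgKrt19 tumor, at 0.231 to 0.306 against 0.311 to 0.976 in sgScramble tumors, and the ranges nearly touch.

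The genes of these 4 receptor chains, *Klrd1*, *Klrc1*, *Klrk1* and *Klre1*, were called in the main fit and under all 14 alternatives. With each library left out in turn, the log2 fold change of *Klrd1* stayed between 2.23 and 2.55, that of *Klrc1* between 1.83 and 2.24, that of *Klrk1* between 1.81 and 2.11 and that of *Klre1* between 1.34 and 1.70. Without sgKrt19 8, *Klrd1*, *Klrc1* and *Klrk1* had larger changes (2.55, 2.24 and 2.10) than with it, and *Klre1* was at 1.51.

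**Figure D2:**
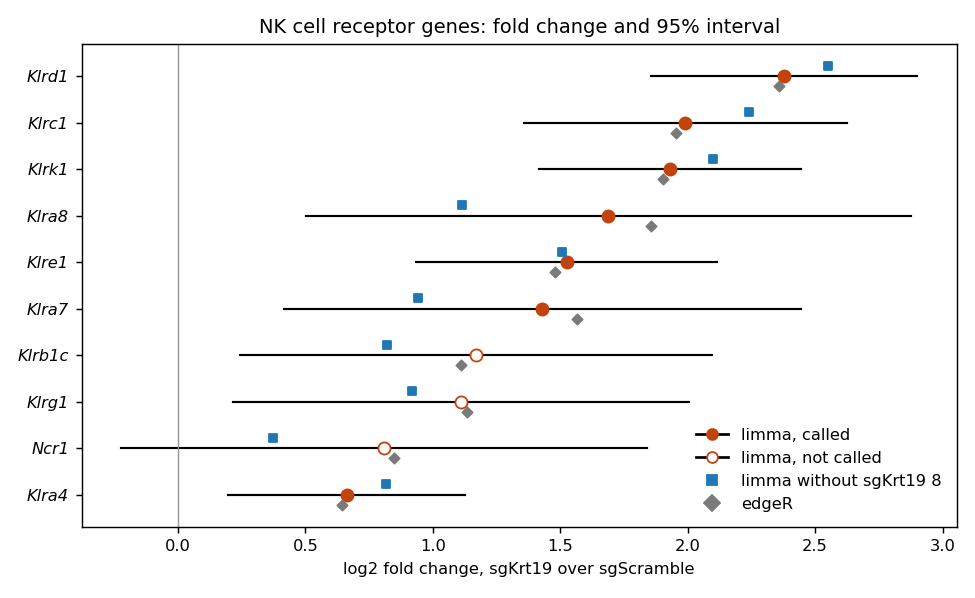
Log2 fold change of each NK receptor gene, sgKrt19 over sgScramble (x axis), with genes in order of their change (y axis). Circles and lines are limma estimates with 95% intervals, squares the limma estimates without sgKrt19 8 and diamonds the edgeR estimates. *Klrd1*, *Klrc1* and *Klrk1* lie furthest right, at 1.93 to 2.38, and the interval of *Ncr1* includes 0.

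Of the 4 markers fixed for NK cells, the receptor genes *Ncr1* and *Klrb1c* were not called, and the transcription factor genes *Eomes* and *Tbx21*, which T cells also express, were called higher. *Ncr1* encodes NKp46, an activating receptor found on nearly all NK cells. It was at 13.9, 13.8, 8.22 and 28.8 in sgScramble tumors and at 22.0, 17.0 and 49.4 in sgKrt19 tumors, from 9 to 47 reads per library. The groups overlapped, since sgScramble 4 lay above sgKrt19 5 and 6. The means were 16.2 ± 8.79 (SD, n = 4) and 29.4 ± 17.4 (SD, n = 3), and the log2 fold change was 0.81 with a 95% interval of −0.22 to 1.84 (adjusted p = 0.197, limma). The interval holds both no change and the change of *Klre1*, so a difference of either size was not told apart at this depth. Without sgKrt19 8 the log2 fold change of *Ncr1* was 0.37.

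*Klrb1c* (NK1.1) was at 31.6, 21.7, 33.8 and 76.05 in sgScramble tumors and at 63.6, 67.0 and 137 in sgKrt19 tumors. Again sgScramble 4 lay above sgKrt19 5 and 6, and sgKrt19 8 was the highest of all. The means were 40.8 ± 24.1 (SD, n = 4) and 89.0 ± 41.2 (SD, n = 3), and the log2 fold change was 1.17 (SE 0.417, adjusted p = 0.0525, limma). DESeq2 on the recovered reads called it (adjusted p = 0.0311), and so did limma without sgScramble 4 (adjusted p = 0.0112, log2 fold change 1.52), while without sgKrt19 8 the log2 fold change was 0.82 (adjusted p = 0.184, limma).

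*Ncr1* and *Klrb1c* were each set against a leukocyte gene and a T cell gene, to ask whether they moved more than these. The references were *Ptprc* (CD45), a gene of all leukocytes, and *Cd3e*, a chain of the T cell receptor complex. *Ptprc* rose from 965 ± 184 to 2186 ± 275 (log2 fold change 1.19, adjusted p = 0.000518, limma), and *Cd3e* rose from 65.2 ± 27.9 to 395 ± 127 (log2 fold change 2.63, adjusted p = 0.000470, limma). The log2 difference between *Ncr1* and *Ptprc* averaged −5.92 ± 0.463 in sgScramble tumors (SD, n = 4) and −6.31 ± 0.962 in sgKrt19 tumors (SD, n = 3), a shift of −0.38 (exact permutation p = 0.486, adjusted 0.648). For *Klrb1c* against *Ptprc* the shift was −0.02 (exact permutation p = 1, adjusted 1). Neither shift exceeded the spread between tumors. *Ptprc* had the largest log2 fold change of the 5 leukocyte genes, which ranged from 0.62 to 1.19 with a median of 0.65. Both shifts therefore hold for *Ptprc* alone, and the other leukocyte genes were not used as references.

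Against *Cd3e*, the mean of *Ncr1* was lower in sgKrt19 tumors, without passing the test. The log2 difference between *Ncr1* and *Cd3e* was −2.37, −2.75, −2.03 and −0.75 in sgScramble tumors and −4.16, −4.84 and −2.38 in sgKrt19 tumors, a shift of −1.82. sgKrt19 8 lay within the sgScramble range and the other sgKrt19 tumors below it. The exact permutation p was 0.0571, where 2 of 35 arrangements were as extreme, and 0.229 after adjustment over the 4 tests. For *Klrb1c* against *Cd3e* the shift was −1.46 (exact permutation p = 0.143, adjusted 0.286). All 4 tests were two-sided, and the smallest exact p that 35 arrangements allow is 0.0286. After adjustment over the 4 tests, a comparison that reached this p alone would still miss the threshold. These tests therefore cannot decide whether *Ncr1* or *Klrb1c* fell relative to *Cd3e*, and only the shifts and the values per tumor are described.

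The Ly49 genes rose by limma with less certainty. *Klra4* encodes Ly49D, an activating receptor that signals through DAP12, and had 626, 633, 395 and 449 normalized reads in sgScramble tumors and 1047, 786 and 658 in sgKrt19 tumors. The groups did not overlap, though sgKrt19 8 lay close to sgScramble 2. *Klra4* rose from 526 ± 122 (SD, n = 4) to 831 ± 198 (SD, n = 3), by 0.66 on the log2 scale (SE 0.209, limma adjusted p = 0.0339), the smallest of the 7 calls. The call was lost without sgScramble 3 (adjusted p = 0.0666), sgScramble 4 (0.0791), sgKrt19 5 (0.134) or sgKrt19 6 (0.0680), and with scaling by library size only (0.0823), all in limma.

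*Klra8* encodes Ly49H, an activating receptor known for its recognition of a cytomegalovirus protein. It was at 16.7, 4.94, 7.31 and 15.8 in sgScramble tumors and at 20.8, 25.0 and 77.7 in sgKrt19 tumors. The groups did not overlap, but sgKrt19 8 was 3.39 times the mean of sgKrt19 5 and 6. The means were 11.2 ± 5.93 (SD, n = 4) and 41.2 ± 31.7 (SD, n = 3), and *Klra8* rose by 1.69 on the log2 scale (SE 0.534, limma adjusted p = 0.0341). Without sgKrt19 8 the log2 fold change was 1.11 (adjusted p = 0.127, limma), and the call was also lost without sgScramble 2 (0.0838) or sgScramble 3 (0.0605) and with scaling by library size only (0.0556).

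*Klra7* encodes Ly49G, an inhibitory receptor for class I molecules. Its normalized read counts were 21.4, 24.7, 14.6 and 40.8 in sgScramble tumors and 63.6, 34.0 and 130.2 in sgKrt19 tumors. The groups overlapped, since sgScramble 4 lay above sgKrt19 6. *Klra7* rose from 25.4 ± 11.1 (SD, n = 4) to 75.9 ± 49.3 (SD, n = 3), by 1.43 on the log2 scale (SE 0.456, limma adjusted p = 0.0352). Without sgKrt19 8 the log2 fold change was 0.94 (adjusted p = 0.130, limma). The call was also lost without sgScramble 1 (0.0613), sgScramble 2 (0.0681), sgScramble 3 (0.0666) or sgKrt19 5 (0.0846), and with scaling by library size only (0.0614). The pseudogene *Klra13-ps*, which shares sequence with *Klra7* and was named after its values were seen, had the same order of sgKrt19 8 over the rest, with 67.2 in sgKrt19 8, 20.8 in sgKrt19 5 and 5.48 to 9.27 in sgScramble tumors.

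*Klrg1* encodes an inhibitory receptor for cadherins on mature NK cells and on differentiated CD8 T cells. It was at 21.4, 10.9, 30.1 and 25.0 in sgScramble tumors and at 26.6, 59.0 and 59.9 in sgKrt19 tumors. sgKrt19 5 lay within the sgScramble range and the other sgKrt19 tumors above it. The means were 21.9 ± 8.16 (SD, n = 4) and 48.5 ± 19.0 (SD, n = 3), and the log2 fold change of 1.11 (SE 0.403) was not called by limma (adjusted p = 0.0557). edgeR's quasi-likelihood test called it (adjusted p = 0.0426), as did DESeq2 (0.0246), limma with a pseudocount of 5 (0.0488), and limma without sgScramble 3 (0.0397) or sgKrt19 5 (0.0262).

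The 3 sgKrt19 tumors did not rank alike across the receptor genes, a pattern that was noticed after the values were seen and was not tested. In sgKrt19 8, *Ncr1* was 2.53 times, *Klrb1c* 2.09 times, *Klra7* 2.67 times and *Klra8* 3.39 times the mean of sgKrt19 5 and 6. In the same library *Klra4*, *Klrc1*, *Klrd1* and *Klrk1* were at 0.718, 0.593, 0.694 and 0.705 of that mean. *Cd3e* was at 0.566 and *Ptprc* at 0.805, and sgKrt19 8 was the lowest of its group for all 13 alpha beta T cell markers and all 5 leukocyte genes. It was also the lowest for the NK cell markers *Eomes* (104 against 106 and 146) and *Tbx21* (83.0 against 102 and 119). sgKrt19 8 was therefore high for *Ncr1*, *Klrb1c*, *Klra7* and *Klra8*. It was low for *Tbx21*, alpha beta T cell markers, *Klra4*, *Klrc1*, *Klrd1* and *Klrk1*, and close to sgKrt19 5 for *Eomes*. The other receptor genes, *Klre1* and *Klrg1*, were at 1.04 and 1.40 times the mean of sgKrt19 5 and 6. Of 8 gamma delta T and NKT cell markers in the table, sgKrt19 8 was the highest for 5 and the lowest for 0. Among those 5, *Trdv4* (2.10 against 2.00 in sgKrt19 6) and *Zbtb16* did not pass the filter on low values. Of the 3 markers called higher, *Tcrg-C1* was highest in sgKrt19 8, *Trdc* in sgKrt19 5 and *Tcrg-C2* in sgKrt19 6. Of 15 cytotoxic effector and chemokine genes, it was the highest for 3 and the lowest for 11. Of all genes tested, sgKrt19 8 was the highest of its group for 28.8% and the lowest for 32.7%.

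**Figure D3:**
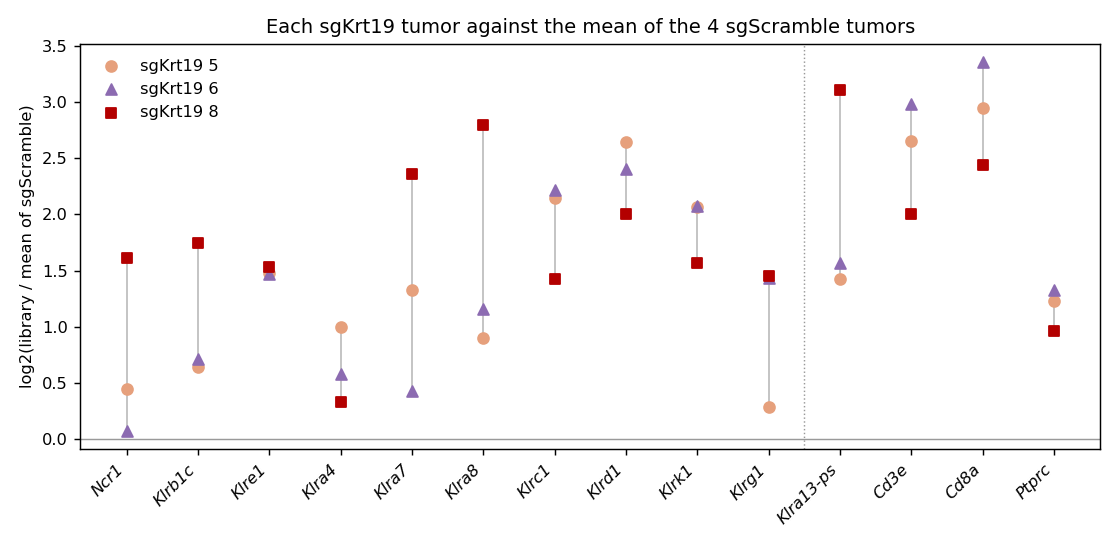
Log2 ratio of each sgKrt19 tumor to the mean of the 4 sgScramble tumors (y axis) for the 10 NK receptor genes and, right of the dotted line, *Klra13-ps*, *Cd3e*, *Cd8a* and *Ptprc* (x axis), with 1 marker per library. sgKrt19 8 (squares) is the highest of the 3 for *Ncr1*, *Klrb1c*, *Klra7*, *Klra8* and *Klra13-ps* and, by a small margin, for *Klre1* and *Klrg1*. It is the lowest for *Klra4*, *Klrc1*, *Klrd1*, *Klrk1*, *Cd3e*, *Cd8a* and *Ptprc*.

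Levels were compared between genes per kilobase of exon, in normalized reads. In sgScramble tumors *Klra4* had the highest level, with a mean of 422 per kb, followed by *Klrd1* at 80.3 and *Klrc1* at 79.4. The other 7 genes had means of 9.49 (*Klra8*) to 20.1 (*Klra7*) per kb. In sgKrt19 tumors *Klra4* was again first at 667 per kb, then *Klrd1* at 417 and *Klrc1* at 311, and the others had means of 19.1 (*Ncr1*) to 60.03 (*Klra7*) per kb. In both groups the ranges over tumors were apart only between *Klra4* and *Klrd1* and between *Klrc1* and *Klra7*, and all other neighbours in the order overlapped. *Klra4* over *Klra8*, in normalized reads, was 28.5 to 128 in sgScramble and 8.47 to 50.3 in sgKrt19 tumors. *Klra4* thus stood far above its close relative in every tumor, and above *Ncr1* per kb, while its sequence shares almost nothing over 76 bases with other genes.

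**Figure D4:**
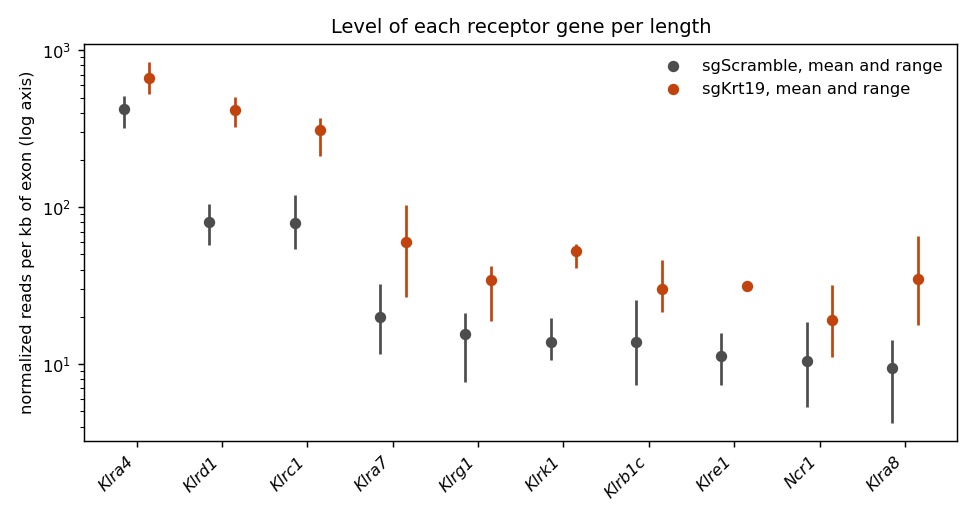
Normalized reads per kb of exon (y axis, log scale) of each NK receptor gene (x axis, in order of the sgScramble mean), with points for the mean and lines for the range over the 4 sgScramble or 3 sgKrt19 tumors. *Klra4* is highest in both groups, at 422 and 667, and *Klrd1* and *Klrc1* are next.

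Of 26 other surface receptor genes of NK cells in the table, 20 were tested and 12 were called higher, with none called lower and a median log2 fold change of 1.18. The other 8 tested genes, among them *Tigit* and *Slamf6*, were not called. The largest changes were in *Crtam*, a receptor of activated NK and CD8 T cells (log2 fold change 2.47, adjusted p = 0.000187, limma), *Cd160* (2.12, adjusted p = 0.000206) and *Klrc2*. *Il2rb*, the receptor chain for IL-2 and IL-15, rose from 386 ± 66.1 to 1316 ± 179 (log2 fold change 1.77, adjusted p = 7.09e-05, limma). *Fcgr3*, the Fc receptor of NK cells that is also abundant in macrophages, was at 1999 ± 348 and 2323 ± 357 and was not called (log2 fold change 0.22, adjusted p = 0.295, limma).

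Among the adaptors and proximal signaling genes, 10 of 15 were called higher and none lower, with a median log2 fold change of 0.74. *Hcst* (DAP10), the adaptor of NKG2D, rose from 33.5 ± 8.44 to 119.7 ± 12.7 (log2 fold change 1.84, adjusted p = 0.000587, limma). *Tyrobp* (DAP12), the adaptor of Ly49D and Ly49H that myeloid cells also use, rose less, from 1274 ± 207 to 2086 ± 299.6 (log2 fold change 0.72, adjusted p = 0.00635, limma). *Lat* and *Zap70*, which also serve the T cell receptor, had the largest changes of the list at 2.08 and 1.97.

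Genes of the ligands changed both ways. Of 15 tested, 7 were called higher and 2 lower, with a median log2 fold change of 0.55. The class I genes were highest among them. *H2-T23*, which encodes the CD94 ligand Qa-1, rose from 4824 ± 951 to 13374 ± 1905 (log2 fold change 1.48, adjusted p = 0.000215, limma). *H2-K1* and *H2-D1*, ligands of some Ly49 receptors, rose by 1.68 and 1.52 on the log2 scale. *Cdh1* (E-cadherin), a ligand of KLRG1, rose by 0.55 (adjusted p = 0.0101, limma), while *Cdh2* (N-cadherin), another, fell by 0.998 (adjusted p = 0.00914, limma). *Cadm1*, a ligand of CRTAM, fell by 1.34 (adjusted p = 0.000467, limma). Among ligands of NKG2D, *Raet1e* rose from 310.1 ± 54.8 to 513 ± 26.1 (log2 fold change 0.74, adjusted p = 0.00539, limma), whereas *Ulbp1* was at 553 ± 123 and 494 ± 108 and was not called (adjusted p = 0.570, limma).

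Transcription factors and cytokine genes of NK cells gave 12 called higher and 1 lower of 17 tested, with a median log2 fold change of 0.96. *Tbx21* (T-bet) rose from 29.6 ± 11.0 to 101 ± 18.0 (log2 fold change 1.81, adjusted p = 0.00289, limma), and *Eomes*, which with T-bet directs NK cell maturation, from 63.5 ± 6.52 to 119 ± 23.6 (0.88, adjusted p = 0.00880). *Il15*, the cytokine that NK cells need to survive, rose from 256 ± 10.2 to 479 ± 39.1 (0.90, adjusted p = 0.000673, limma). The largest changes of the list were in *Ikzf3* (1.84), *Tbx21* and *Tox2* (1.69), and *Zeb2*, a factor of late NK cell maturation that other cells also use, fell by 0.84 (adjusted p = 0.00472, limma). Cytotoxic effectors and chemokines had 12 of 14 called higher, with a median of 2.17 and the largest changes in *Gzma* (3.51), *Gzmk* (3.24) and *Nkg7* (2.85), genes of both NK cells and CD8 T cells.

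Markers of other lymphocytes moved beside the NK receptors. Of 13 alpha beta T cell markers, 11 were called higher, with a median log2 fold change of 2.22. Their summed count was 4141 to 5125 in sgScramble and 7725 to 12706 in sgKrt19 tumors, and none was at 0 in any library. *Thy1*, which was not called, made up 2685 to 4214 of the sum in sgScramble tumors. The sum of the other 12 markers was 911 to 1559.5 in sgScramble and 4529 to 8109 in sgKrt19 tumors. *Cd8b1* (3.29), *Cd8a* (3.11) and *Cd3d* (2.80) had the largest changes, and *Cd4* was not called (0.56, adjusted p = 0.116, limma). Of markers of ILC1 and resident lymphocytes, 5 of 7 tested were called higher (median 1.55, led by *Cxcr6* at 2.42, with *Tnfsf10* and *Zfp683*), and the summed count was 2446 to 3868 and 4289.9 to 6699. Of gamma delta T and NKT cell markers, 3 of 6 tested were called higher (median 0.94, led by *Tcrg-C2* at 2.66, with *Tcrg-C1* and *Trdc*), with sums of 1380.3 to 1744 and 1421 to 2107. Of ILC2 and regulatory T cell markers, 3 of 7 tested were called higher (*Ccr8*, *Ctla4* and *Il2ra*) and *Ikzf2* lower (median 0.50), with sums of 1579 to 1755 and 1623 to 1740.3. In the same list *Foxp3* was at 522 ± 14.8 and 498 ± 46.2 and was not called (adjusted p = 0.660, limma). *Il13* (means 10.5 and 2.09) and *Il5* (5.37 and 1.42) were lower in every sgKrt19 tumor than in every sgScramble tumor, at low counts that were not tested. *Foxp3*, *Il13* and *Il5* were named after their values were seen. All 5 leukocyte genes were called higher, with a median of 0.65, led by *Ptprc*, *Coro1a* and *Cd53*, but 3 of the 5 were with scaling by library size only. The part of these cells in the receptor results was not tested. *Klrd1* over *Cd3e* was 1.18 to 2.03 in sgScramble and 1.06 to 1.58 in sgKrt19 tumors, so *Klrd1* and *Cd3e* kept ratios that overlap between the groups.

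**Figure D5:**
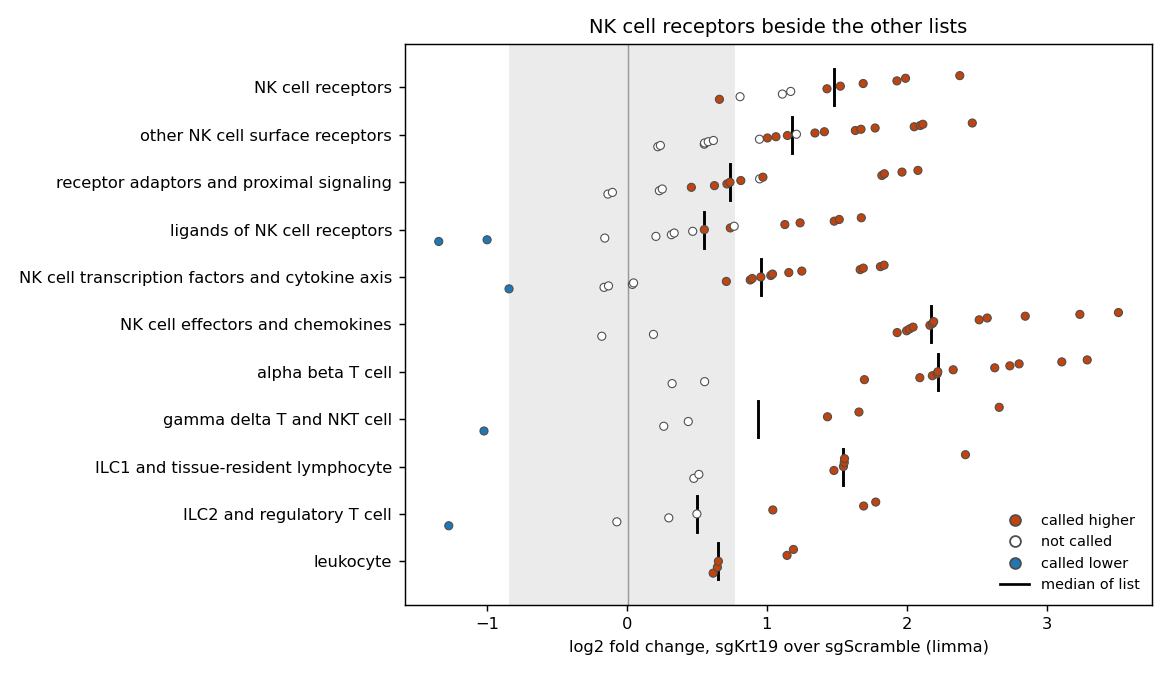
Log2 fold change, sgKrt19 over sgScramble by limma (x axis), of each tested gene of the NK receptors and of 10 other lists (y axis), colored by its call, with a line at each list's median. The shaded band holds the 10th to 90th percentile of all genes tested (−0.83 to 0.77), and the NK receptor genes, with a median of 1.48, lie between those of the other surface receptors (1.18) and those of alpha beta T cells (2.22).

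Genes with profiles most like *Ncr1* over the 7 libraries were found by the root mean square distance of centred log2(value + 1) profiles among 14958 named genes. They were *Vnn3* (distance 0.301), *Lrrtm2* (0.318), *Galnt16* (0.336), *Phactr1* (0.343) and *Gbp8* (0.346), with no other NK receptor gene among the 5. For *Klrd1*, looked at after its values were known, they were *Trbc1* (0.176), *Trac* (0.196), *Ccl3* (0.199), *Trbc2* (0.206) and *Klrc2* (0.209), of which *Trbc1*, *Trac* and *Trbc2* encode constant chains of the T cell receptor. These distances describe 7 libraries that fall into 2 groups, with no test.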

How the data were processed

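RNA from 7 whole tumors was sequenced by the authors as single reads of 76 bases after preparation with a TruSeq stranded kit. The labels name genome build mm10. The aligner and the counting program are not given in the sources used here. The deposited table holds 38026 genes and 1 column per tumor. Its values are a signal, since the authors divided counts of reads per gene by a size factor of each library, and whole reads were recovered for 100% of values in each library (tolerance 0.1).

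Genes that reached a value of 10 in 3 or more libraries entered the test, which was run on log2(value + 1) with limma 3.58.1 (lmFit, eBayes with trend) in R 4.3.3, with Benjamini-Hochberg adjustment over all genes tested (threshold 0.05). The pseudocount understates changes of low genes. The labels do not say that the tumors came from separate mice, so p-values measure the spread between these samples. Relative levels were tested by exact permutation over the libraries. Alternatives were edgeR 4.0.16 (quasi-likelihood) and DESeq2 1.42.0 on the recovered counts, scaling by library size only, pseudocounts of 0.5 and 5, no filter, a filter of 50 and leaving out each library.

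The receptor genes, the lists and the tests were chosen with earlier results of these data known. Named genes are the receptor genes, *Krt19*, *Ptprc*, *Cd3e*, partners, ligands and defining genes fixed with the lists, up to 3 called genes with the largest change each way in each list, and the 5 nearest profiles of *Ncr1*. For symbols in more than 1 row, the row with the highest mean was used. The test was checked on simulated data. Some named items, among them 1 called marker gene, are not reported here.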

Additional observations from a re-analysis of the deposited data

Results flagged for a closer look

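Among 29 results searched for a sgScramble library far from the other 3, 2 had one, and chance gives about 1 in 20. Both concern sgScramble 3. The summed normalized read count of the alpha beta T cell markers was 5125 (5124.58) in sgScramble 3 against 4141 to 4295 in the others. *Thy1* alone made up 4214 of it, and the sum of the other 12 markers was 911 in sgScramble 3, the lowest of its group. The summed count of the skeletal muscle genes was 1734 (1734.38) in sgScramble 3 against 43.5 to 68.6 in the others. sgScramble 3 was also the lowest of its group for *Ncr1*, *Klre1*, *Klra4*, *Klra7*, *Klrc1*, *Klrd1* and *Klrk1*. No value of a receptor gene in a sgScramble library stood apart by this measure.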

How the results depend on the processing

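Over 77 results, 1042 alternative values were computed, of which 1006 were counted as unchanged. For a gene this meant the same direction and the same side of the threshold. For a relative level it meant the same sign only, whatever its size or p. For a count it meant a move of no more than 1.5 times. The share of calls that were higher and the median of all genes were held to a fixed limit. The number of receptor genes called was 7 in the main fit, 8 by edgeR and 9 by DESeq2. It was 4 with scaling by library size only and 5 to 7 with each library left out. With a filter of 50, only 6 of the 10 genes were tested, and 5 were called. Over the whole table, 7240 genes were called in the main fit, 7188 by edgeR and 7971 by DESeq2. There were 7904 with scaling by library size only, 6323 with a filter of 50 and 4861 to 7714 with a library left out. Scaling by library size only moved the median of all genes to −0.21 and the share of calls that were higher from 52.8% to 27.5%, and called 3 leukocyte genes in place of 5. A filter of 50 called 2 gamma delta T and NKT cell genes in place of 4. All 10 receptor genes kept a positive log2 fold change in each alternative that tested them. The shift of *Ncr1* against *Ptprc* ranged from −0.92 to 0.000688 with a library left out, and that of *Klrb1c* against *Ptprc* from −0.47 to 0.22, so both changed sign. The cause was not tested. No paired analysis was possible because the groups share no replicate number. Low counts of *Ncr1*, *Klra8*, *Klra7* and *Klrg1* limit what 4 against 3 tumors can show.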
